A study of Mus musculus with 8 samples.

Results

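The 10 genes described here encode cytokines and cytokine receptor subunits of type 2 inflammation and itch, chosen by name from the 49671 genes counted in the series. The 2 ligands were Tslp and Il33. The 8 receptor subunits were Il31ra, Osmr, Crlf2, Il7r, Il4ra, Il13ra1, Il13ra2 and Il1rl1. Each name matched 1 gene, and all 10 passed the filter on low counts that left 19099 genes for testing. RNA came from the whole shaved back skin of mice 8 weeks old, with 4 libraries from mice of Flg genotype ko/ko (knockout) and 4 from mice of Flg genotype wt/wt (wild type). The labels give no strain and do not say whether each library came from 1 mouse, so the p-values measure the spread between these samples. Flg encodes profilaggrin, the precursor of the epidermal barrier protein filaggrin. Levels are given as CPM, which are counts scaled to library size after correction for library composition (TMM factors).

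TSLP and IL-33 are made by epithelial and stromal cells of barrier tissues and are released when the tissue is stressed or injured. TSLP binds a receptor made of CRLF2 and the interleukin 7 receptor alpha chain, and IL-33 binds the receptor ST2, the product of Il1rl1, which works with the accessory chain IL1RAP. IL-4 and IL-13 signal through IL4RA, joined either by the common gamma chain or by IL13RA1, while IL13RA2 binds IL-13 and is regarded mainly as a decoy. IL-31, a cytokine of T cells that causes itch, acts on IL31RA paired with the oncostatin M receptor subunit OSMR. In whole skin, fewer cells of a type and less RNA per cell cannot be told apart.

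The promoters of Il31ra and Osmr are shown because their products form a single receptor while only Il31ra passed the test between genotypes. Promoter windows from RefSeq (build GRCm38.p6), each of 250 bases before the start site and 50 from it, were used for 9 of the 10 genes, and that of Tslp was not used here. Capitals mark matches to the STAT motif TTCNNNGAA, to its form with 4 bases between TTC and GAA (each its own reverse complement) and to the AP-1 motif TGANTCA (also its own reverse complement), searched on both strands, where N is any base. The windows are chr13:112580613-112580912 (minus strand) for Il31ra and chr15:6874264-6874563 (minus strand) for Osmr.
Il31ra: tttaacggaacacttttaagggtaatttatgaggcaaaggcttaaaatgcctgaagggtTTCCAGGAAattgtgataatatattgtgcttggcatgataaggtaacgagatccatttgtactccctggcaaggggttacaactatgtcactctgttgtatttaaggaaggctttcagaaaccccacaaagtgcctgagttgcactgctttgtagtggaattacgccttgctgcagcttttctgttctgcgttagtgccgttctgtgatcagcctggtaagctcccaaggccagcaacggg
Osmr: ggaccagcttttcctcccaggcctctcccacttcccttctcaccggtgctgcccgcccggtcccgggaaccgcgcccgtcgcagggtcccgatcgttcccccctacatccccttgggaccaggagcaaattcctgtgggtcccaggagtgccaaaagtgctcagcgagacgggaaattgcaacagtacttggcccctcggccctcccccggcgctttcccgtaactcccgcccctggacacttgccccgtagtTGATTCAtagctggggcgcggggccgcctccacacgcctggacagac
The Il31ra window held TTCCAGGAA, a match to TTCNNNGAA, at position -191 from the start site, and no AP-1 match. The Osmr window held TGATTCA, an AP-1 match, at position 4 and neither STAT spacing. Il7r also matched TTCNNNGAA, with TTCAGGGAA at position -142, and Il13ra2 matched the AP-1 motif, with TGACTCA at position -193. The first of 2 Il33 windows matched the STAT motif with 4 bases between, with TTCTGGGGAA at position -36. Among all 32851 promoter windows, TTCNNNGAA was found in 8.3%, the form with 4 bases between in 6.95% and TGANTCA in 7.81%. The Il31ra window had 44.7% G and C and 6 CG pairs, and the Osmr window 66.0% and 22. A match is a description of letters and not a bound site, and 0 matches says only that these letters are not in the window. The start site of the Osmr window lies inside the gene span of the count table.

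Library totals lay between 18483242 and 38545957 counts in knockout and between 23817186 and 34263154 counts in wild type. Flg, the targeted gene, was at 27.0, 24.7, 24.1 and 22.3 CPM in knockout replicates 1 to 4 and at 66.9, 46.5, 56.1 and 66.6 CPM in wild-type replicates 1 to 4, so its reads were reduced and not absent in the libraries labelled knockout (log2 fold change -1.27 ± 0.12 SE, edgeR adjusted p = 0.00326). The summed level of 8 basal keratinocyte markers was 8153 to 9127 CPM in knockout and 8885 to 10020 CPM in wild type, as skin should hold, and that of 10 fibroblast markers was 25970 to 37620 CPM in knockout and 23430 to 37270 CPM in wild type.

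Of the 10 genes, Il31ra rose and Tslp fell in Flg knockout skin, and the other 8 did not pass the edgeR test. Among the 2 ligands 0 were higher and 1 was lower, and among the 8 receptor subunits 1 was higher and 0 were lower. Those 2 called genes make 20% of the 10, against 1.41% of all tested genes (0.712% higher and 0.702% lower in knockout). The genes were picked with earlier results of these data known, so the larger share is not evidence of its own. The median log2 fold change was -0.41 over the 2 ligands and 0.01 over the 8 receptor subunits, against -0.02 over all tested genes. CPM of the genotypes did not overlap for Il31ra and for Tslp, a state found in 11.5% of all tested genes (5.57% higher and 5.95% lower in knockout).

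**Figure D1:**
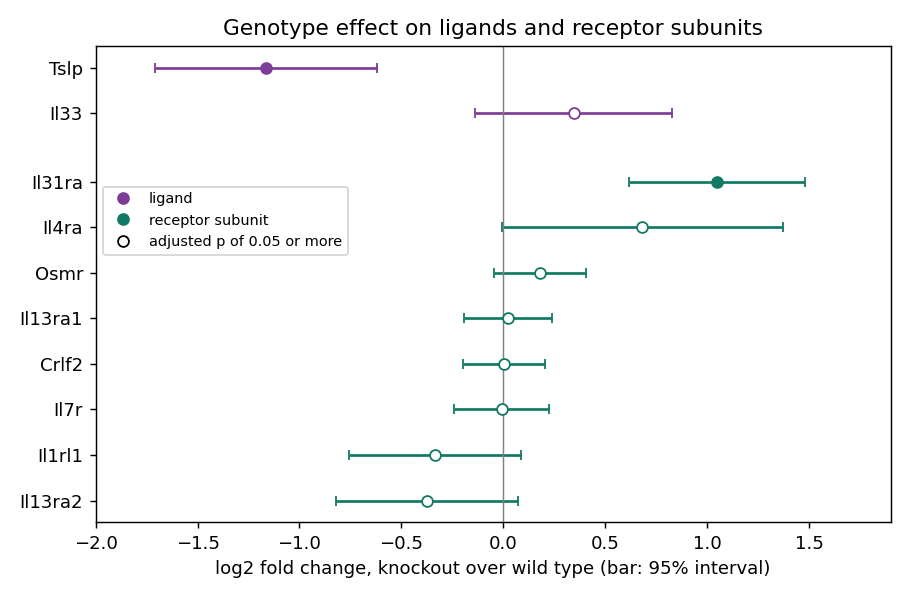
Log2 fold change of each gene, knockout over wild type, with its 95% interval from the edgeR fit on 4 libraries per genotype; filled points have an adjusted p under 0.05. Tslp lies at -1.16 and Il31ra at 1.05, and every other interval includes 0.

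**Figure D2:**
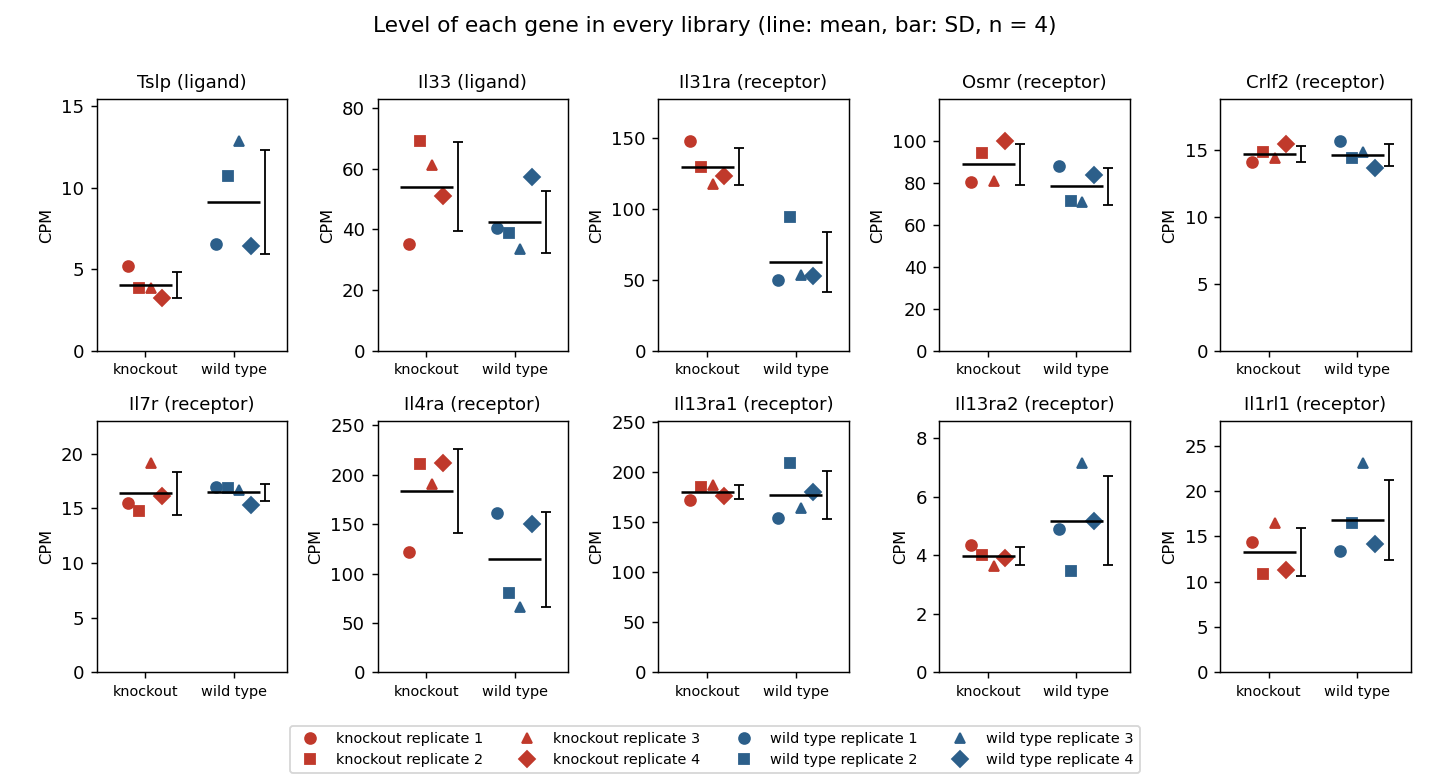
CPM of each gene in every library, with the knockout libraries left of the wild-type libraries; the line is the mean and the bar the SD of 4 libraries, and a shared replicate number pairs nothing. Tslp and Il31ra are the panels in which the genotypes do not overlap.

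The ligand gene Tslp (ENSMUSG00000024379, chromosome 18, positions 32815383 to 32819799, plus strand, mm10) encodes the cytokine by which keratinocytes act on dendritic cells and type 2 lymphocytes. It was at 5.18, 3.85, 3.87 and 3.25 CPM in knockout replicates 1 to 4, and at 6.53, 10.7, 12.9 and 6.45 CPM in wild-type replicates 1 to 4. Every knockout library lay below every wild-type library, and wild-type replicates 2 and 3 stood well above the other two. The means were 4.04 ± 0.81 CPM in knockout and 9.14 ± 3.18 CPM in wild type (SD, n = 4 each). Tslp fell to 0.446 of wild type, a log2 fold change of -1.16 ± 0.25 (SE, 95% interval -1.71 to -0.62, edgeR adjusted p = 0.0496). The raw counts behind these values were 197, 72, 93 and 87 in knockout, against 226, 271, 305 and 163 in wild type. The call was at the threshold: without single libraries it remained only when wild-type replicate 3 was left out (adjusted p = 0.0392), and the other 7 omissions gave adjusted p of 0.0613 to 0.158.

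The other ligand gene, Il33 (ENSMUSG00000024810, chromosome 19, positions 29925114 to 29960718, plus strand), encodes a nuclear cytokine released by damaged epithelial, endothelial and stromal cells. Its level was 35.1, 69.1, 61.2 and 51.0 CPM in knockout, against 40.6, 38.7, 33.4 and 57.2 CPM in wild type. The groups overlapped, since knockout replicate 1 was below 3 of the wild-type libraries and wild-type replicate 4 was above 2 of the knockout libraries. The log2 fold change was 0.34 ± 0.22 (SE, 95% interval -0.14 to 0.83, adjusted p = 0.407), so a rise of up to 1.77-fold lies within the interval. The 2 ligand genes thus had opposite signs, with a test passed by Tslp alone; the difference between them was not tested.

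Il31ra (ENSMUSG00000050377, chromosome 13, positions 112522810 to 112580662, minus strand) encodes the subunit that gives the IL-31 receptor its specificity. It stood at 148.1, 130.1, 118 and 124 CPM in knockout replicates 1 to 4, and at 50.1, 94.8, 53.6 and 52.8 CPM in wild-type replicates 1 to 4. All knockout libraries were above all wild-type libraries, 3 of the wild-type libraries were close together, and wild-type replicate 2 was apart from them. The means were 129.97 ± 13.1 CPM in knockout and 62.8 ± 21.4 CPM in wild type (SD, n = 4 each). The rise was 2.07-fold, a log2 fold change of 1.05 ± 0.19 (SE, 95% interval 0.62 to 1.48, edgeR adjusted p = 0.04). Without wild-type replicate 2 the log2 fold change was 1.32 (adjusted p = 0.000403), and without wild-type replicate 3 it was 0.99 (adjusted p = 0.0376). The call ended when any of the other 6 libraries was left out, at log2 fold changes of 0.95 to 1.09 and adjusted p of 0.065 to 0.119.

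Osmr (ENSMUSG00000022146, chromosome 15, positions 6813577 to 6874969, minus strand) encodes the signalling partner of IL31RA, which also pairs with gp130 to form the oncostatin M receptor. It was at 80.6, 94.2, 80.7 and 99.8 CPM in knockout, against 88.0, 71.1, 70.8 and 83.5 CPM in wild type, with overlap between the genotypes. The log2 fold change was 0.18 ± 0.10 (SE, adjusted p = 0.362), and its 95% interval of -0.05 to 0.41 lay below that of Il31ra, although the difference between the genes was not tested. Per kilobase of exon, Il31ra reads exceeded Osmr reads 6.08, 4.57, 4.83 and 4.10 times in knockout, against 1.88, 4.41, 2.50 and 2.09 times in wild type. This scaling uses deposited exon lengths, 3665 bases for Il31ra and 12113 for Osmr, which need not match the transcripts present. By CPM alone, mean Osmr was at 88.8 in knockout and 78.3 in wild type, against 130 and 62.8 for Il31ra. The ratio overlapped between genotypes because wild-type replicate 2 exceeded knockout replicate 4. The ligand gene Il31 had 1 read in the knockout libraries together and 0 in wild type, where 0 counts in a library allow up to 0.0876 to 0.126 CPM (3 counts, counting error only). Osm, the gene of oncostatin M, stood at 1.64 ± 0.94 CPM in knockout and 0.744 ± 0.283 CPM in wild type (SD, n = 4 each, edgeR adjusted p = 0.185). Lif, the gene of a related cytokine, differed by 0.51 ± 0.28 on the log2 scale (SE, adjusted p = 0.355).

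**Figure D3:**
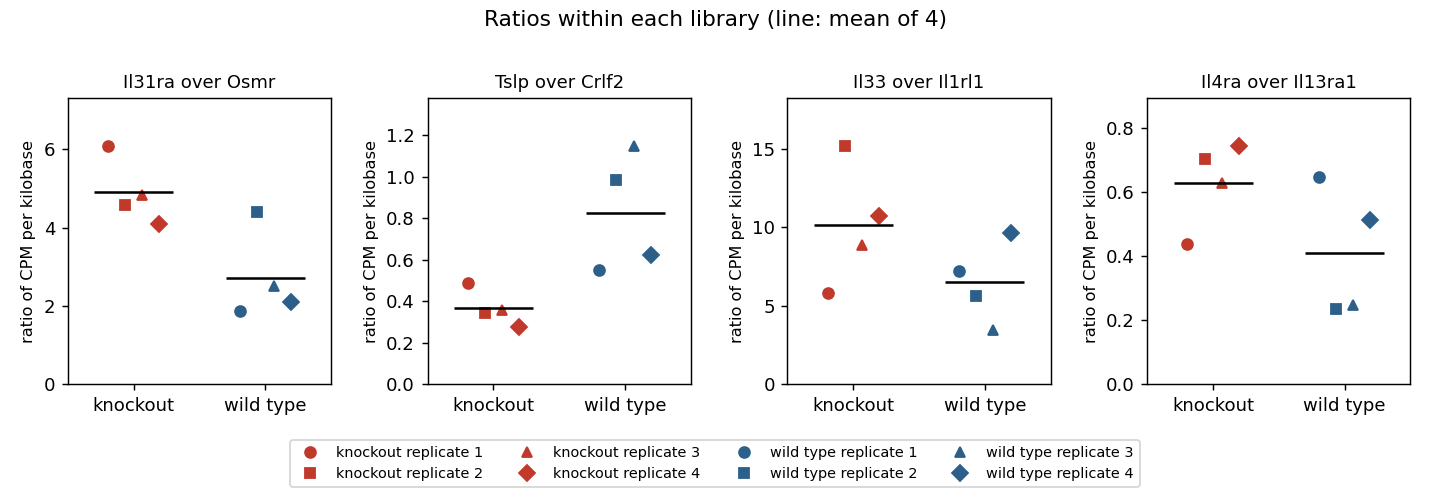
Ratio of CPM per kilobase between partner genes within each library, knockout left of wild type, with the mean of 4 libraries as a line; a shared replicate number pairs nothing. The Tslp to Crlf2 ratio is 0.279 to 0.487 in knockout and 0.551 to 1.147 in wild type, while the other 3 ratios overlap between genotypes. Crlf2 varied little, so the ratio of Tslp to Crlf2 mostly restates the Tslp levels.

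Both chains of the TSLP receptor differed little between genotypes. Crlf2 (ENSMUSG00000033467, chromosome 5, positions 109554709 to 109558993, minus strand), the chain that is specific for TSLP, was at 14.1, 14.8, 14.4 and 15.4 CPM in knockout, against 15.6, 14.4, 14.8 and 13.6 CPM in wild type. The SD was 4.03% of the mean in knockout and 5.74% in wild type. The fitted difference was 0.00 ± 0.09 on the log2 scale (SE, adjusted p = 0.985), with a 95% interval of -0.20 to 0.21. Il7r (ENSMUSG00000003882, chromosome 15, positions 9506161 to 9529876, minus strand), which lymphocytes also use as the receptor chain for IL-7, was at 15.5, 14.8, 19.2 and 16.1 CPM in knockout, against 16.99, 16.9, 16.7 and 15.3 CPM in wild type. On the log2 scale it differed by -0.01 ± 0.10 (SE, adjusted p = 0.976), with a 95% interval of 0.847-fold to 1.17-fold. The ratio of Tslp to Crlf2 per kilobase did not overlap between genotypes. It was 0.366 ± 0.087 in knockout and 0.826 ± 0.285 in wild type (SD, n = 4 each). Crlf2 varied little, so this ratio mostly restates the Tslp levels.

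The receptor for IL-4 and IL-13 gave a mixed picture. Il4ra (ENSMUSG00000030748, chromosome 7, positions 125552120 to 125579474, plus strand), the chain shared by both cytokines, was at 122, 210.4, 190.0 and 212 CPM in knockout, against 161, 79.9, 66.1 and 149.6 CPM in wild type. Knockout replicate 1 lay below 2 of the wild-type libraries, and wild-type replicates 2 and 3 lay below every knockout library. Its log2 fold change was 0.68 ± 0.30 (SE, 95% interval -0.01 to 1.37, adjusted p = 0.26), the widest interval of the 10 genes. An antisense gene, Gm44876, overlaps 571 bases of its exons, and the strand setting of the counting is not given in the sources used here. The 3 libraries lowest in Il4ra were also the lowest in Il33 within their genotypes. Il13ra1 (ENSMUSG00000017057, chromosome X, positions 36112110 to 36171259, plus strand), the second chain of the receptor that keratinocytes and fibroblasts use for both cytokines, was at 172, 185, 186 and 176 CPM in knockout, against 154, 209, 164 and 180.0 CPM in wild type. The fitted log2 difference was 0.02 ± 0.10 (SE, adjusted p = 0.915), with a 95% interval of 0.876-fold to 1.18-fold.

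Il13ra2 (ENSMUSG00000031289, chromosome X, positions 147383476 to 147429192, minus strand), the decoy chain for IL-13, was at 4.37, 4.02, 3.62 and 3.93 CPM in knockout, against 4.91, 3.48, 7.16 and 5.19 CPM in wild type. Wild-type replicate 2 was the lowest of all 8 libraries and wild-type replicate 3 the highest, so the genotypes overlapped. Its log2 fold change was -0.38 ± 0.20 (SE, 95% interval -0.82 to 0.07, adjusted p = 0.339). Of the ligand genes, Il4 stood at 2.23 ± 0.46 CPM in knockout and 2.51 ± 0.14 CPM in wild type (SD, n = 4 each, edgeR adjusted p = 0.614). Il13 did not pass the low-count filter and is described after its values were seen. It had 6, 3, 3 and 4 reads in knockout, against 14, 11, 12 and 10 reads in wild type. The CPM of the genotypes did not overlap, at 0.148 ± 0.016 in knockout and 0.435 ± 0.050 in wild type (SD, n = 4 each). In the fit with no filter its log2 fold change was -1.51 ± 0.45 (SE, adjusted p = 0.0878). Il2rg, the gene of the common gamma chain, was at 10.8 ± 0.6 CPM in knockout and 11.8 ± 1.7 CPM in wild type (adjusted p = 0.602).

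Il1rl1 (ENSMUSG00000026069, chromosome 1, positions 40429570 to 40465415, plus strand) encodes both the membrane receptor and a soluble form of ST2, which a count per gene adds together. It was at 14.3, 10.9, 16.5 and 11.3 CPM in knockout, against 13.4, 16.5, 23.1 and 14.1 CPM in wild type. The highest library of each genotype was replicate 3, and the genotypes overlapped. The log2 fold change was -0.34 ± 0.19 (SE, 95% interval -0.76 to 0.09, adjusted p = 0.361). Mast cells express Il1rl1, and the mean of 10 tested mast cell and basophil markers was also highest in replicate 3 of each genotype, at 3.92 log2 CPM of a knockout range of 3.27 to 3.92 and 4.14 log2 CPM of a wild-type range of 3.42 to 4.14. This was not particular to mast cells. Marker means of T and natural killer cells (2.26 and 2.52 log2 CPM) were likewise highest in replicate 3 of knockout and wild type. So were those of dendritic and Langerhans cells (5.162 and 5.385 log2 CPM). The part of any of these cells in the result was not tested. Per kilobase, Il33 exceeded Il1rl1 5.85, 15.2, 8.88 and 10.8 times in knockout, against 7.23, 5.63, 3.46 and 9.68 times in wild type. These ratios use deposited exon lengths of 2886 bases for Il33 and 6894 for Il1rl1, which need not match the transcripts present. The accessory chain gene Il1rap differed by 0.00 ± 0.11 on the log2 scale (SE, adjusted p = 0.989).

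Set side by side per kilobase of exon, the subunit genes of a receptor had unequal levels in whole skin. Each level was divided by the deposited exon length of its gene, which need not be the length of the transcripts present. Orders and ratios between genes depend on that length, while a comparison of the same gene between genotypes does not. Il13ra1 was the highest of the 10 genes, at 48.4 ± 1.9 CPM per kilobase in knockout and 47.6 ± 6.4 in wild type (SD, n = 4 each), and its libraries overlapped with those of no other gene. In knockout it was followed by Il31ra at 35.5 ± 3.6, Il4ra at 30.6 ± 7.0 and Il33 at 18.7 ± 5.1 CPM per kilobase. In wild type the order was Il4ra at 19.0 ± 8.0, Il31ra at 17.1 ± 5.8 and Il33 at 14.7 ± 3.6. In both genotypes the range of Il4ra overlapped with those of Il31ra and Il33. Overlap of ranges does not compare genes within a library. In knockout replicates 1 to 4 Il4ra was above Il33 each time, at 20.3, 35.1, 31.7 and 35.3 against 12.15, 23.9, 21.2 and 17.7 CPM per kilobase. In wild type it was above Il33 in replicates 1 and 4 only. The order of neighbours was not tested. Tslp took rank 8 in knockout, at 3.57 ± 0.72 CPM per kilobase, and rank 6 in wild type, at 8.06 ± 2.80, where it overlapped with Crlf2 and Osmr. Il1rl1 and Il13ra2 were the lowest in both genotypes, at 1.92 ± 0.38 and 1.75 ± 0.13 CPM per kilobase in knockout and at 2.43 ± 0.64 and 2.27 ± 0.66 in wild type.

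**Figure D4:**
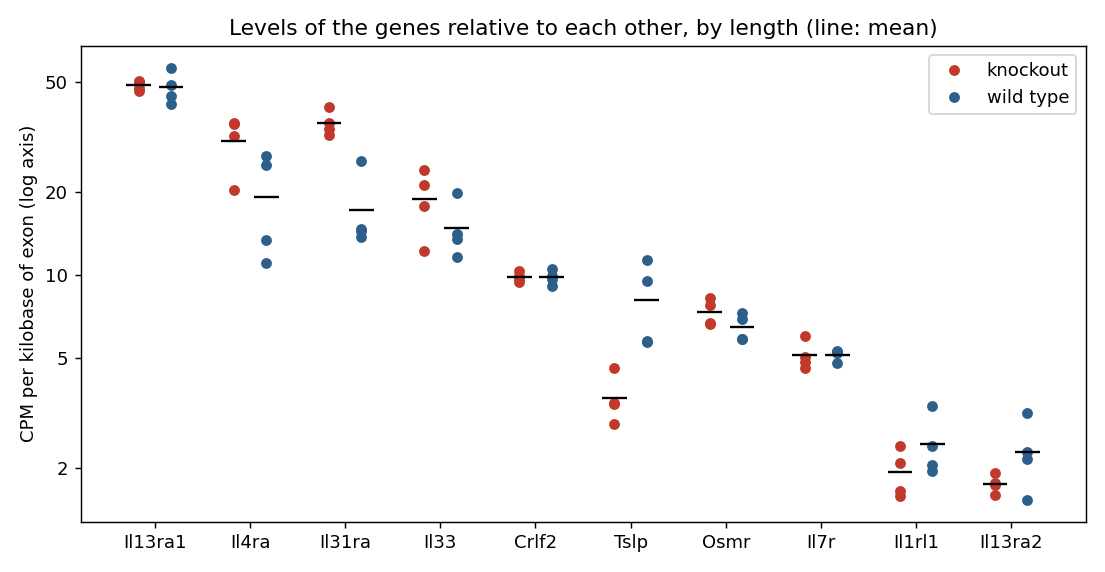
CPM per kilobase of exon on a log axis for each gene, in the order of the wild-type means, with knockout libraries left of wild-type libraries and lines at the means. Il31ra stands above Il4ra in knockout by its mean, at 35.5 against 30.6, and Tslp drops to 3.57 in knockout, against 8.06 in wild type.

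The pathway lists around these receptors held called genes in both directions. Over 89 tested genes of the 8 lists other than the 10, 3 were higher and 2 lower, with a median log2 fold change of 0.01, against -0.02 over all tested genes. The called share was 3.37% higher and 2.25% lower, above the 0.712% and 0.702% of all tested genes. These lists too were chosen with earlier results of these data known, so the larger share is not evidence of its own. Among 9 JAK and STAT genes, which carry the signal from these receptors, 1 was higher and 0 lower, and the list had a median of 0.07. Stat5a, a transcription factor downstream of the TSLP and IL-7 receptors, rose to 51.1 ± 3.0 CPM in knockout, against 35.8 ± 4.4 CPM in wild type (log2 fold change 0.52 ± 0.10 SE, edgeR adjusted p = 0.0416). Its call was kept in 2 of 8 fits that left out single libraries, those without wild-type replicate 2 or 3, and in 0 of the 3 fits with a marker covariate. Of those covariates, the adipocyte and the T and natural killer cell means left 0 of all tested genes called. The keratinocyte mean left 39 higher and 15 lower. Stat6, the main transducer of IL-4 and IL-13, had a log2 fold change of 0.02 ± 0.07 and is given beside Stat5a though the naming rule did not choose it. Jak1 was at 0.24 ± 0.08 (adjusted p = 0.158) and Stat5b at 0.13 ± 0.07 (adjusted p = 0.364).

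Among 15 tested type 2 response genes, 2 were higher and 2 lower, where 0.712% of all tested genes were higher and 0.702% lower. Mgl2 and Mrc1, lectin and mannose receptor genes of dermal macrophages and dendritic cells that IL-4 and IL-13 induce in culture, both rose. Mgl2 was at 163 ± 26 CPM in knockout and 95.3 ± 5.3 CPM in wild type (adjusted p = 0.0151), and Mrc1 at 674 ± 93 CPM in knockout and 449.5 ± 52.8 CPM in wild type (adjusted p = 0.0483). Postn, the gene of the matrix protein periostin that IL-13 induces in fibroblasts, fell to 1096 ± 66 CPM in knockout, against 1862 ± 179 CPM in wild type (adjusted p = 0.0154). Ear2, a ribonuclease gene of eosinophils and macrophages, fell to 10.7 ± 0.9 CPM in knockout, against 18.1 ± 2.7 CPM in wild type (adjusted p = 0.0284). Related genes of its family could share its reads, so its value is uncertain. The mean of 12 macrophage markers, Mrc1 among them, was 7.14 to 7.59 log2 CPM in knockout and 6.89 to 7.27 log2 CPM in wild type, and that of 10 fibroblast markers 9.36 to 9.59 log2 CPM in knockout and 9.11 to 9.64 log2 CPM in wild type; their part in these results was not tested. The median log2 fold change of the list was -0.09, with 5 of the 15 genes above 0 and 10 below. Uncalled genes below 0 included Ccl24 at -1.08 ± 0.38, Retnla at -0.92 ± 0.51 and Clec10a, another lectin gene, at -0.39 ± 0.22 (SE). Uncalled genes above 0 included Tgm2 at 0.95 ± 0.27 and Arg1 at 0.29 ± 0.13. The list as a whole thus did not move in the direction of Mgl2 and Mrc1. With single libraries left out, Mgl2 was called in 7 of 8 fits (not without knockout replicate 2), Postn in 6 (not without knockout replicate 2 or 4), Ear2 in 4 and Mrc1 in 1, the fit without wild-type replicate 3. None of Mgl2, Postn, Ear2 and Mrc1 was called with any of the 3 marker covariates given below. The adipocyte and the T and natural killer cell covariates left 0 of all tested genes called. The keratinocyte covariate left 39 higher and 15 lower.

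The remaining 6 lists had 0 called genes by edgeR. Of their 65 tested genes, 6 (9.23%) were higher and 7 (10.8%) lower at an unadjusted p under 0.05, close to the 8.64% higher and 10.9% lower among all tested genes. DESeq2 called 4 higher (6.15%) and 3 lower (4.62%), against 3% higher and 2.8% lower of the 19710 genes to which it gave an adjusted p. Among 10 partner and related receptor subunits, Il17ra, a receptor chain for IL-17 and IL-25, was at 84.4 ± 3.7 CPM in knockout and 58.1 ± 10.6 CPM in wild type (adjusted p = 0.0547). Il6st, the gene of gp130, was at 534.8 ± 18.9 CPM in knockout and 438 ± 34 CPM in wild type (adjusted p = 0.116). Csf2rb and Il17rb had log2 fold changes of -0.13 ± 0.09 and -0.20 ± 0.14 (SE). Il25, an epithelial cytokine of type 2 immunity, was at 0.328 ± 0.057 CPM in knockout and 0.963 ± 0.484 CPM in wild type (adjusted p = 0.0696). Among feedback genes of cytokine receptors, Bcl6, a repressor of STAT6 targets, was at a log2 fold change of 0.37 ± 0.09 (adjusted p = 0.0588). Ptpn11 was at 0.22 ± 0.08, Socs1 at -0.54 ± 0.21 and Socs5 at -0.14 ± 0.08.

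Genes said to act upstream of Tslp in keratinocytes gave no called member among 15. Nfatc1, a calcium-dependent factor, was at -0.37 ± 0.08 (adjusted p = 0.0578), Spink5, an inhibitor of kallikrein proteases, at -0.30 ± 0.10, Orai1, a calcium channel, at -0.20 ± 0.08 and Rxrb, a retinoid receptor, at -0.19 ± 0.08. In the IL-33 signalling list, Irak3, a brake on this pathway, was at 0.34 ± 0.10 (adjusted p = 0.113), Myd88 at -0.15 ± 0.12, Sigirr at -0.17 ± 0.16 and Irak4 at 0.08 ± 0.10. Among 14 tested itch mediators and channels, Gdnf, a growth factor for sensory neurons, was at 6.39 ± 0.30 CPM in knockout and 8.73 ± 0.36 CPM in wild type (SD, n = 4 each, edgeR adjusted p = 0.0661). Hrh1, a histamine receptor, was at a log2 fold change of 0.46 ± 0.22 (adjusted p = 0.279) and Trpv4, a cation channel, at 0.17 ± 0.09 (adjusted p = 0.35).

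Of 16 cell marker lists, 3 had list means that did not overlap between genotypes, and all 3 were lower in knockout. The mean of 15 T and natural killer cell markers was 1.93 to 2.26 log2 CPM in knockout and 2.39 to 2.52 log2 CPM in wild type, with 0 higher and 2 lower (Cd2 and Ncr1), and the summed level was 229 to 317 CPM in knockout and 202 to 298 CPM in wild type. Most of this sum was Thy1, at 239 CPM in knockout and 173 CPM in wild type, so the sum says little about the other markers. The mean of 13 dendritic epidermal T cell markers was 1.95 to 2.31 log2 CPM in knockout and 2.69 to 3.11 log2 CPM in wild type, with 1 lower (Ctla2a), and the summed level was 102 to 119 CPM in knockout and 132 to 196 CPM in wild type. For 9 tested markers of type 2 innate lymphoid cells, a source of IL-13, the mean was 3.40 to 3.60 log2 CPM in knockout and 3.67 to 3.84 log2 CPM in wild type, with 0 called by edgeR. Their summed level overlapped, at 513 to 561 CPM in knockout and 509 to 592 CPM in wild type. Most of that sum was Rora (275 CPM in knockout and 276 CPM in wild type) and Gata3 (211 and 228 CPM). It therefore says little about the other markers. The mean of 18 white adipocyte markers was 7.55 to 8.10 log2 CPM in knockout and 6.74 to 7.83 log2 CPM in wild type, with 0 called by edgeR, 16 of 18 above 0 and a summed level of 7256 to 9438 CPM in knockout and 5228 to 9188 CPM in wild type. At an unadjusted p under 0.05, 11 of the 13 dendritic epidermal T cell markers were lower (7 by DESeq2), as were 9 of the 15 T and natural killer cell markers (4 by DESeq2, with 1 marker higher at the unadjusted p) and 3 of the 9 innate lymphoid markers (1 by DESeq2). Of the 18 adipocyte markers 12 were higher (8 by DESeq2). Among all tested genes 8.64% were higher and 10.9% lower at this unadjusted p, and DESeq2 called 3% higher and 2.8% lower. The mean of 11 suprabasal keratinocyte markers was 8.05 to 8.17 log2 CPM in knockout and 8.16 to 8.30 log2 CPM in wild type, with 0 higher and 2 lower (Lypd3 and Calml3). In the other lists, Mrc1 (macrophage) and Scd1 (sebaceous gland) were higher and Ear2 (eosinophil) and Epcam (dendritic and Langerhans cell) lower. Of 8 hair follicle bulge markers, which include Nfatc1, edgeR called 0. At an unadjusted p under 0.05, 5 of them were lower and 1 higher, and DESeq2 called 4 lower, Nfatc1 among them. None of the matched markers was at 0 in all libraries. The T cell lists share Cd3d, Cd3e and Cd3g, and the innate lymphoid list shares Gata3, Il17rb, Il5 and Il13 with the pathway lists. With the T and natural killer cell mean as a covariate, Il31ra had a log2 fold change of 0.57 and Tslp of -1.20. With the adipocyte mean they were at 1.29 and -1.57, and with the mean of 19 keratinocyte markers at 1.22 and -0.69. In these 3 fits neither gene passed the edgeR test, and adjusted p was 0.138 to 0.99 for Il31ra and 0.114 to 0.99 for Tslp. The adipocyte and the T and natural killer cell covariates left 0 of all tested genes called, so calls lost with them are not particular to these genes. The keratinocyte covariate left 39 of all tested genes higher and 15 lower, against 136 and 134 without a covariate. The T and natural killer cell mean did not overlap between genotypes, and neither did the joint mean of the 19 keratinocyte markers. The fits with these means therefore cannot separate the cells from genotype. The part of these cells in either result was not tested.

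**Figure D5:**
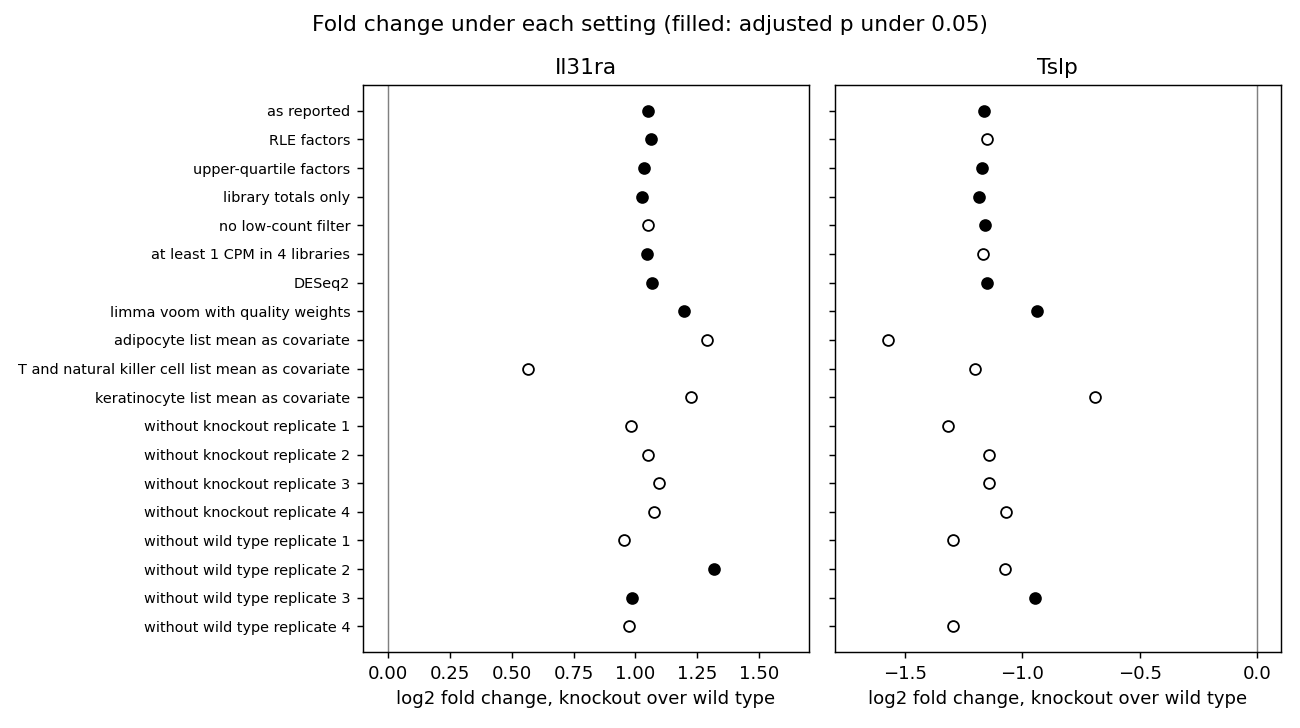
Log2 fold change of Il31ra and Tslp, knockout over wild type, under each setting; filled points have an adjusted p under 0.05. Il31ra stays between 0.57 and 1.32 and Tslp between -1.57 and -0.69, while the calls come and go.

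The genes most like each called gene across the 8 libraries were sought among 15241 others by the root mean square difference of log2 CPM after centring on the mean. For Il31ra these were Oas3 at 0.193, Spock1 at 0.235 and Gm17552 at 0.245, against a spread of 0.611 of Il31ra itself around its mean. Genes chosen for their likeness to a called gene over the same libraries share its difference between genotypes by that choice, so their values describe them and support nothing. Spock1 had a higher level in knockout (log2 fold change 1.43 ± 0.21 SE), and so had Gm17552 (1.33 ± 0.27), while Oas3 was at 0.79 ± 0.22. For Tslp they were Neil2 at 0.122, Slc40a1 at 0.197 and 2600014E21Rik at 0.204, against a spread of 0.617. Slc40a1, the gene of the iron exporter ferroportin, had a lower level in knockout (log2 fold change -0.85 ± 0.16 SE), and so had 2600014E21Rik (-1.06 ± 0.21), and Neil2, a DNA repair gene, was at -1.07 ± 0.27.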

How the data were processed

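The authors deposited 1 table of raw counts, unnormalized whole numbers, for 49763 features in 8 libraries. Per the submitters' processing notes, GSNAP and featureCounts 1.6.2 were used with mm10; whether reads were counted by strand, or when aligned to several places, was not stated in any label or header read here. The labels name both a SMART protocol and a strand-specific kit, and neither was assumed. Exon lengths deposited beside the counts gave levels per kilobase. The 92 spike-in features, with at most 1 read in a library, were left out. Symbols were found for 49326 of 49671 gene identifiers in GENCODE names.

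edgeR 4.0.16 (R 4.3.3) tested knockout over wild type on all 8 libraries: filterByExpr, TMM factors, robust quasi-likelihood test, Benjamini-Hochberg adjustment over 19099 genes, called at an adjusted p under 0.05. SE was derived from the F statistic and intervals cover 95%. The script was tested on simulated counts. Replicate numbers follow accession order and pair nothing. All replicate pairs differed by more than sampling noise. Chi-square over its degrees of freedom was 5.46 to 21.77 in knockout pairs and 16.85 to 56.76 in wild-type pairs. Alternatives were other scaling factors and filters, DESeq2 1.42.0, limma 3.58.1 voom with quality weights, marker means as covariates and each library left out. The 10 genes and all lists were chosen with earlier results of these data known. From each pathway list the called genes and otherwise those with the smallest p, up to 4, are named, and for each called gene the 3 genes most like it. Some genes that this rule names are not reported here. Il13, Il31, Il1rap, Il2rg, Stat6, Il4ra's neighbour Gm44876 and Flg were named outside that rule. So were Ccl24, Retnla, Clec10a, Tgm2, Arg1, Thy1, Rora and Gata3.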

Additional observations from a re-analysis of the deposited data

Results flagged for a closer look

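Wild-type replicate 2 was far from the other 3 wild-type libraries in Il31ra, at 94.8 CPM against 50.1 to 53.6 CPM. Its gap to the nearest of them was 0.921 of the range, above the 95% critical value of Dixon's test for 4 samples. Chance flags about 1 in 20 such groups. The test was run on each of the 10 genes in each genotype, and this was its only flag. Wild-type replicate 2 remained below the lowest knockout library, at 118 CPM.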

How the results depend on the processing

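Leaving out single libraries gave 0 to 1 of the 10 genes higher and 0 to 1 lower, 0 to 6 pathway genes higher and 0 to 6 lower, and 9 to 679 of all genes higher and 2 to 646 lower. Of all genes, the most were called without wild-type replicate 3 and the fewest without knockout replicate 2. Il31ra ranged from 0.95 to 1.32 and Tslp from -1.32 to -0.95 in these fits. Il31ra lost its call with no low-count filter (0 of the 10 higher, adjusted p = 0.0771), and Tslp lost its call with RLE factors and with at least 1 CPM in 4 libraries (0 lower each, adjusted p = 0.0517 and 0.0508). Over the 10 settings that kept all libraries, adjusted p was 1.78e-05 to 0.99 for Il31ra and 0.000645 to 0.99 for Tslp. The adipocyte, T and natural killer cell and keratinocyte covariates each left 0 of the 10 higher and 0 lower and 0 pathway genes higher and 0 lower. At an unadjusted p under 0.05 they left 2, 0 and 1 of the 10 higher and 2, 0 and 0 lower. Of all genes the adipocyte and the T and natural killer cell covariates left 0 higher and 0 lower, and the keratinocyte covariate 39 and 15. DESeq2 called 9 pathway genes higher and 6 lower (591 and 551 of all genes), voom 12 and 9 (1174 and 1361), and the fit with no filter 5 and 4 (234 and 268). The cause of these changes was not tested. Genes near 0 changed sign: Crlf2 was at -0.004 with upper-quartile factors, -0.015 with library totals only and -0.031 with the adipocyte covariate. Il7r was at 0.005 with RLE factors, 0.009 with DESeq2, 0.079 with the adipocyte and 0.304 with the T and natural killer cell covariate, which put Il1rl1 at 0.174. With single libraries left out, Crlf2 ranged from -0.028 to 0.039, Il7r from -0.091 to 0.037 and Il13ra1 from -0.037 to 0.115. None of the 8 genes that missed the threshold passed it under any of the 18 alternatives. No paired analysis was possible because the replicate numbers come from accession order and pair no samples. Depth limits the low ligand genes Il13 and Il31, which had at most 14 reads and 1 read in a library.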
